A study of Mus musculus with 5 samples.

Results

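The tumour necrosis factor (TNF) and TRAF family genes were taken as the autosomal protein-coding genes of the mm9 mouse genome whose symbol starts with Tnfsf, Tnfrsf, Tnfaip or Traf followed by a digit. There were 49 such genes of 21321 autosomal protein-coding genes, after 51 annotation records had been joined by symbol. They comprised 11 ligands (Tnfsf), 20 receptors (Tnfrsf), 10 adaptors (7 TRAF proteins and 3 TRAF-interacting proteins) and 8 TNF-induced proteins (Tnfaip). The class names follow the symbols alone, and whether TNF induces each Tnfaip gene was not examined. The rule uses symbols and no measured value, although it was set with earlier results of these data known.

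Chromatin immunoprecipitation with sequencing (ChIP-seq) had been carried out on DP (CD4 and CD8 double-positive) thymocytes, which make up most thymocytes of a normal thymus. The study asked where CXXC finger protein 1 (Cxxc1) binds in these cells and how trimethylation of lysine 4 on histone H3 (H3K4me3), a mark of promoters, differs without it. The 3 lists of enriched places examined here, from 1 library each, held Cxxc1 and H3K4me3 of wild-type (WT) cells and H3K4me3 of Cxxc1-deficient cells. The Cxxc1 ChIP of Cxxc1-deficient cells and the WT input were not analysed here. WT mice were Cxxc1 fl/fl and Cxxc1-deficient mice were Cxxc1 fl/fl hCD2-Cre, so both genotypes carried the floxed allele. In the latter Cre acted from early thymocytes and in other immune cells. The paper reports far fewer thymocytes in these mice, with DP cells a minority of them and surviving less well. The titles name the Cxxc1-deficient libraries as KO whereas their genotype label reads Cxxc1+/-, and the titles were followed. The Cxxc1 list carries no genotype, and reading it as WT rests on the study's methods. Mice were a few weeks old, and whether a library pooled animals is not stated.

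Ligands of the TNF superfamily are mostly trimeric membrane proteins that cluster their receptors. Many of the receptors carry a death domain, as Tnfrsf1a (TNFR1) does, or bind TRAF proteins directly, and both routes can lead to NF-kB and JNK signalling. In the thymus this family is best known for signals between thymocytes and medullary epithelial cells, such as RANKL and RANK, and for costimulatory receptors of developing regulatory T cells, such as OX40 and GITR. Cxxc1 recognises unmethylated CpG dinucleotides and is a subunit of Setd1 complexes, which write H3K4me3.

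Each list gives 200-bp windows inside the called regions, each with its RPM, the tags per 1000000 that mapped. Tag numbers were inferred window by window, since the RPM values are rounded to 1 decimal. A gene was called listed at its promoter when a window lay within 1 kb of any of its transcription start sites (TSSs), and its level is the sum of those windows. The wider interval, here the extended gene body, was the gene plus 10 kb upstream, as the study used it for Cxxc1 binding. A place outside the called regions has an unknown value and not a value of 0. The smallest step between values put the depth at 9.09 to 9.12 M tags for Cxxc1, 9.41 to 9.47 M for WT H3K4me3 and 9.41 to 9.45 M for Cxxc1-deficient H3K4me3. The lowest autosomal peak held 10 tags in each of them. With 1 library per group there was no replicate check, no test was made, and the 95% intervals (exact binomial for shares, exact Poisson for tags) cover counting error only. As a check of the labelled cells, 6 of 11 DP and T cell marker genes found in the annotation were listed in WT H3K4me3, led by Satb1 (7.0 RPM) and Tcf7 (5.5 RPM), while Cd4, Rag1, Rag2, Cd3d and Cd3g were not. Of markers of other cells, 1 of 5 for B cells (Cd79b, 0.4 RPM), 0 of 5 for myeloid cells, 1 of 4 for erythroid cells (Klf1, 0.9 RPM) and 0 of 5 for thymic epithelium were listed there. In the Cxxc1-deficient list 3 of the 11 T cell markers were found (Cd8a, Rag1 and Cd3e), and the only marker of other cells was the erythroid gene Epor (1.9 RPM), which was not listed in WT. Its part in the genotype comparison was not tested. A smaller share of cells with a mark and less of it per cell cannot be told apart in these libraries.

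The places that carry the findings are shown first, as mm9 sequence read from 5′ to 3′ on the strand of the gene, with each CpG in capitals. The first set is the Cxxc1 window of highest value outside untranslated regions at 4 of the members that Cxxc1 bound, chosen because CpG is the dinucleotide Cxxc1 recognises. These were chr1:93391401-93391600 (plus strand, coding exon and intron edge of Traf3ip1, 0.8 RPM), chr2:25400001-25400200 (minus strand, intron of Traf2, 0.5 RPM), chr17:57238001-57238200 (plus strand, upstream of Tnfsf9 in an intron of Gm11110, 0.8 RPM) and chr6:125291401-125291600 (plus strand, upstream of Tnfrsf1a in an intron of Scnn1a, 0.5 RPM).
Traf3ip1: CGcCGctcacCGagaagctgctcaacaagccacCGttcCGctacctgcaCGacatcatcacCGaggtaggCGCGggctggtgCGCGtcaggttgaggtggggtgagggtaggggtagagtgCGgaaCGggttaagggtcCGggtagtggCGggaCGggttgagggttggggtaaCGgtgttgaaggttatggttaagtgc
Traf2: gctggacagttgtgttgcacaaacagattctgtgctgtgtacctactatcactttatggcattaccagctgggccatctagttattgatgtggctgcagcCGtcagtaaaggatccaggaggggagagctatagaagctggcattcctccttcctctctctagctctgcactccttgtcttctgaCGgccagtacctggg
Tnfsf9: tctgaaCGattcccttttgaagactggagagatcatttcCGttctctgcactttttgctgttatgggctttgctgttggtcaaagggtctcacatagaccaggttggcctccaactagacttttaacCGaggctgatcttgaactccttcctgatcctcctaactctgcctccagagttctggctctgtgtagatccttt
Tnfrsf1a: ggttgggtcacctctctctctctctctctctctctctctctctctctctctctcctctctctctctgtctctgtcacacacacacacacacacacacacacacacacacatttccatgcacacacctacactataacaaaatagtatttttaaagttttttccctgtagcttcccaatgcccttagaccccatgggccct
The Traf3ip1 window held 17 CpGs, the Tnfsf9 window 3, the Traf2 window 2 and the Tnfrsf1a window 0. The last of these is largely a run of ct and ca repeats. The median over all Cxxc1 windows on autosomes was 2 CpGs per 200 bp, against 4 for WT and 3 for Cxxc1-deficient H3K4me3 windows.

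The second set is from the promoters of the 2 members that carried H3K4me3 windows in Cxxc1-deficient cells. The Traf3 window, chr12:112403801-112404000 on the plus strand, is the more upstream of 2 that share the highest Cxxc1-deficient value among those within 1 kb of the TSS listed in both genotypes, at 0.3 RPM in each. Shared windows farther upstream held up to 0.5 RPM in Cxxc1-deficient cells. The Traf1 window, chr2:34817601-34817800 on the minus strand, held 0.5 RPM in Cxxc1-deficient cells and was not listed in WT.
Traf3: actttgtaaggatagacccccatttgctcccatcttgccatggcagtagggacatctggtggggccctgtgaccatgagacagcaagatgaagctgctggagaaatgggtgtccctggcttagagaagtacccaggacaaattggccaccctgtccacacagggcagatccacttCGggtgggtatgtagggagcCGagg
Traf1: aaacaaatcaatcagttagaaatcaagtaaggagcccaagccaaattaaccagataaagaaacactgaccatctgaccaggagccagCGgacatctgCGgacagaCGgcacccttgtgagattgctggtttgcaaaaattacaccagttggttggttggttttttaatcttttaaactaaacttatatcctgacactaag
They held 2 and 3 CpGs, and their centres lay at -0.68 kb and -0.41 kb from the most upstream TSS of each gene (minus means upstream).

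The first comparison concerned which of these genes carried promoter H3K4me3 in WT DP thymocytes. Of the 49 genes, 21 were listed, 42.9% (28.8% to 57.8%), and the share over all autosomal genes was 32.5%, which lies within that interval. The adaptors were listed in 6 of 10 cases (60.0%, 26.2% to 87.8%) and the TNF-induced genes in 5 of 8 (62.5%, 24.5% to 91.5%). Receptors were listed in 7 of 20 cases (35.0%, 15.4% to 59.2%) and ligands in 3 of 11 (27.3%, 6.02% to 61.0%). The intervals of the 4 classes overlapped one another, so an order between the classes was not detectable with so few genes. The median level of the listed members was 2.4 RPM (1.6 to 5.4), and that of all listed autosomal genes was also 2.4 RPM (0.3 to 13.7).

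**Figure D1:**
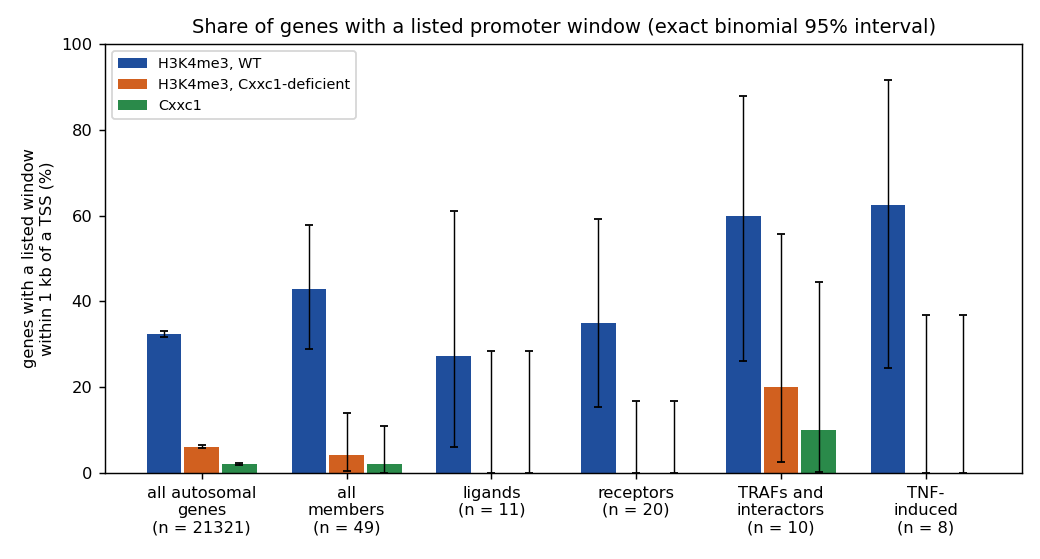
Share of genes with a listed window within 1 kb of a TSS (vertical axis, percent) in the WT H3K4me3, Cxxc1-deficient H3K4me3 and Cxxc1 lists, for all autosomal genes, all 49 members and the 4 classes, with exact binomial 95% intervals. WT shares ran from 27.3% of ligands to 62.5% of TNF-induced genes, and no ligand, receptor or TNF-induced gene was listed in Cxxc1-deficient cells.

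Among the ligands, Tnfsf9 (4-1BB ligand), Tnfsf11 (RANKL) and Tnfsf14 (LIGHT) were listed in WT. Tnfsf9 held 2.5 RPM, or 25 tags (16.2 to 36.9), in a peak that also covered a TSS of the overlapping gene Gm11110. Tnfsf11, the osteoclast and medullary epithelium differentiation factor, held 1.7 RPM (17 tags, 9.9 to 27.2), and Tnfsf14 held 1.6 RPM (16 tags, 9.15 to 26.0). These 3 counting intervals overlapped. The other 8 ligands had no window of any list in their extended gene bodies. They were Tnfsf4 (OX40 ligand), Tnfsf8 (CD30 ligand), Tnfsf10 (TRAIL), Tnfsf12 (TWEAK), Tnfsf13 (APRIL), Tnfsf13b (BAFF), Tnfsf15 and Tnfsf18 (GITR ligand).

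Among the receptors, Tnfrsf14 (HVEM, a receptor of LIGHT) had the highest WT promoter sum, 3.0 RPM or 30 tags (20.2 to 42.8). Tnfrsf13c (BAFF receptor) followed with 2.8 RPM and Tnfrsf12a (TWEAK receptor) with 2.4 RPM. Tnfrsf19 (TROY) held 2.1 RPM, Tnfrsf11a (RANK) 1.7 RPM, and Tnfrsf1a and Tnfrsf8 (CD30) 1.6 RPM each. The lowest of these, at 16 tags (9.15 to 26.0), and the highest overlapped in their counting intervals, so no order among the 7 receptors was detectable. The Tnfrsf1a value came from an internal TSS, in a peak centred at 7.93 kb from the most upstream one. Its most upstream TSS had no listed window.

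Ligands and receptors that bind each other were listed together in 2 cases, Tnfsf11 with Tnfrsf11a and Tnfsf14 with Tnfrsf14. Receptors of 3 unlisted ligands were listed, namely Tnfrsf8, Tnfrsf12a and Tnfrsf13c. Tnfrsf9, the receptor of Tnfsf9, had no promoter window. Neither gene of the pairs OX40 ligand with OX40 (Tnfsf4 and Tnfrsf4) and GITR ligand with GITR (Tnfsf18 and Tnfrsf18) had a promoter window in any list.

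A further 7 members carried WT H3K4me3 windows in the extended gene body but not at a promoter, 14.3% (5.94% to 27.2%), where the share over all genes was 10.8%. Tnfrsf1b (TNFR2) had the largest sum, 7.8 RPM or 78 tags (61.7 to 97.3), in 3 peaks centred at 24.27 to 31.47 kb from its TSS, the last of them over the 3′ end of the gene. Tnfrsf10b (the TRAIL death receptor) had 4.6 RPM in 1 peak at 9.22 kb. Tnfaip2 had 2.7 RPM, Tnfrsf9 2.4 RPM, Traf1 2.3 RPM, and Tnfrsf4 and Traf5 2.1 RPM each. The Tnfrsf9 peak lay over the promoter of Park7, and the Tnfrsf4 peak lay inside Sdf4, so both are windows of neighbouring genes that fall within 10 kb upstream. Counting both ways, 28 of 49 members had a WT window in the extended gene body (57.1%, 42.2% to 71.2%), against 43.3% of all genes. The median length was 20.1 kb for the members and 15.6 kb for all autosomal genes, which widens the interval searched, and its part in this difference was not tested.

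Among the adaptors, Traf3 held 3.4 RPM at its promoter in WT (34 tags, 23.5 to 47.5), Traf3ip1 3.1 RPM (31 tags), Traf4 3.0 RPM, Traf2 2.8 RPM, Traf3ip2 2.4 RPM and Traf7 1.6 RPM (16 tags, 9.15 to 26.0). Traf2 is the adaptor of TNFR1 and TNFR2 signalling, and Traf3 holds back the noncanonical NF-kB pathway by promoting loss of its kinase Map3k14. Traf3ip1 is a part of the intraflagellar transport machinery of cilia, and Traf3ip2 (Act1) is the adaptor of the interleukin-17 receptor. The Traf4 sum was joined by a second, intragenic peak of 2.7 RPM at 2.49 kb, and the Traf2 promoter peak by an intergenic one of 2.9 RPM at -3.24 kb. Traf6, which links Toll-like and interleukin-1 receptors to NF-kB, had no window of any list.

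The highest promoter sum of any member was that of a TNF-induced gene. Tnfaip8, a regulator of cell survival, had 5.4 RPM (54 tags, 40.6 to 70.5), at percentile 98.3 of all listed genes. It has 7 annotated TSSs, and its windows came from 3 separate peaks, so the sum and percentile reflect several TSSs. The largest of these peaks held 3.4 RPM, below the Traf3 promoter peak of 4.5 RPM. Tnfaip3, which encodes the NF-kB inhibitor A20, held 3.3 RPM (33 tags, 22.7 to 46.3). Tnfaip8l1 held 3.0 RPM, Tnfaip8l2 (TIPE2) 2.1 RPM and Tnfaip1 1.7 RPM. The Tnfaip1 peak also covered a TSS of its neighbour Ift20. Tnfaip6 had no window of any list, and Tnfaip8l3 had only a Cxxc1 peak.

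**Figure D2:**
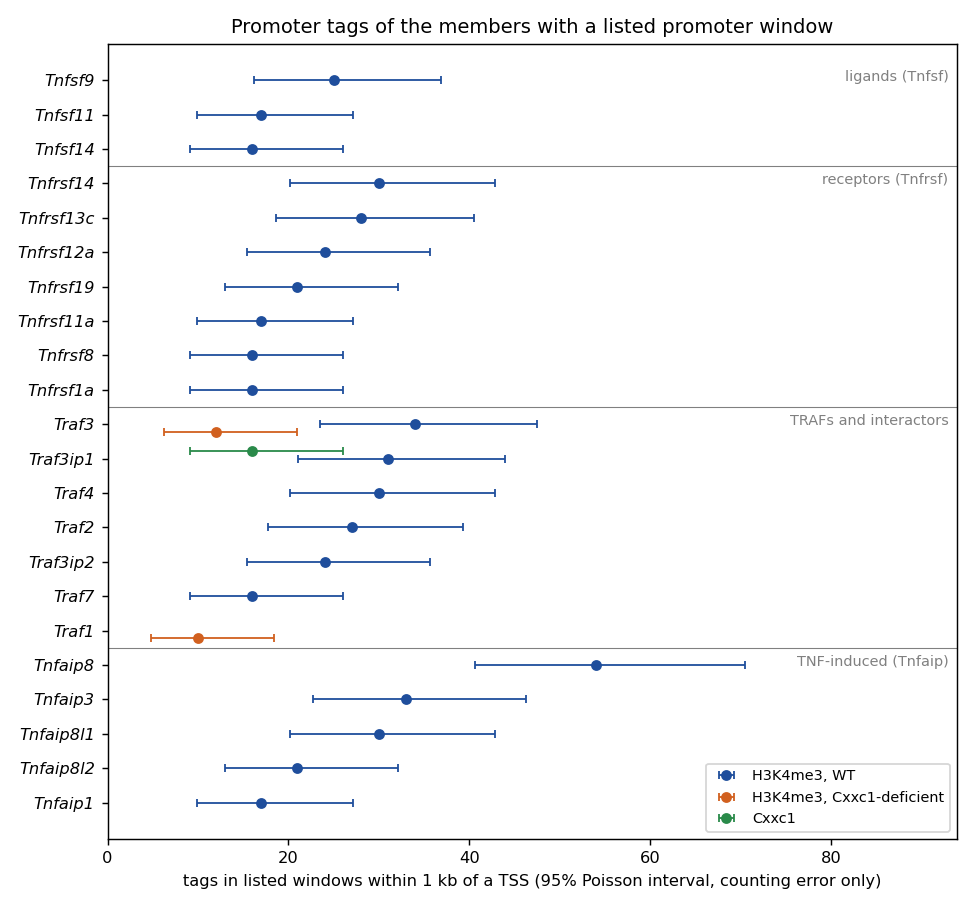
Tags in listed windows within 1 kb of a TSS (horizontal axis) for each member with a promoter window, by class, with exact Poisson 95% intervals that cover counting error only. WT values ran from 16 tags to 54 tags for Tnfaip8, and the Cxxc1-deficient list gave values for Traf3 (12 tags) and Traf1 (10 tags) only.

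The second comparison set the Cxxc1-deficient H3K4me3 list beside the WT list. RPM is scaled to each library's own depth, so equal RPM in both genotypes need not mean equal amounts of the mark. The paper reports lower total H3K4me3 in Cxxc1-deficient DP thymocytes, measured on extracted histones. Of the 49 members, 2 had a promoter window in Cxxc1-deficient DP thymocytes, 4.08% (0.498% to 14.0%), and the share over all genes was 6.12%. Of the 21 members listed in WT, 1 remained listed (4.76%, 0.12% to 23.8%), where 12.8% of all WT-listed genes remained so. Of the 28 members without a WT promoter window, 1 was listed in Cxxc1-deficient cells (3.57%, 0.0904% to 18.3%), and the share over all such genes was 2.9%. All 3 background shares lay within the members' intervals, so a particular behaviour of the family was not detectable. No ligand (0 of 11, upper limit 28.5%), receptor (0 of 20, 16.8%) or TNF-induced gene (0 of 8, 36.9%) was listed. The members' WT sums were at most 54 tags and the lowest Cxxc1-deficient peak held 10 tags, so the level at an unlisted promoter may have been anything below the calling threshold.

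Both promoters listed in Cxxc1-deficient cells belonged to TRAF genes. Traf3 (ENSMUSG00000021277.9) spans 112404581 to 112505364 on chromosome 12. The WT promoter sum of 3.4 RPM stood against 1.2 RPM (12 tags, 6.2 to 21.0) without Cxxc1, and the counting intervals did not overlap. These sums cover different called windows, and uncalled windows have unknown values, so the intervals cannot show a genotype difference. Of the 8 WT and 4 Cxxc1-deficient windows at the promoter, 3 were the same windows, with 1.4 RPM in WT against 0.8 RPM without Cxxc1. The position of the listed peaks differed. The WT peak at 112402801-112406200 (4.5 RPM, 45 tags) was centred at -0.08 kb, whereas the Cxxc1-deficient peak at 112402201-112404200 (3.2 RPM, 32 tags) was centred at -1.38 kb, in an intron of 4930595D18Rik, and ended before the TSS.

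Over the extended gene body the counting intervals of the genotypes overlapped, with the same limit that the sums cover different called windows. The sums were 6.7 RPM in WT (67 tags, 51.9 to 85.1) and 7.7 RPM in Cxxc1-deficient cells (77 tags, 60.8 to 96.2). The peaks away from the promoter lay at different places. WT cells had 1 at 94.22 kb from the most upstream TSS (2.2 RPM), and Cxxc1-deficient cells had 1 at 57.92 kb (2.6 RPM) and 1 at 72.22 kb (1.9 RPM). Only 6 windows of this interval, 20 in WT and 23 in Cxxc1-deficient cells, were listed in both.

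Traf1 (ENSMUSG00000026875.7, chromosome 2, 34797270 to 34817292, minus strand) encodes an NF-kB-induced TRAF that binds Traf2. It had 1.0 RPM (10 tags, 4.8 to 18.4) at its promoter in Cxxc1-deficient cells and no listed promoter window in WT. The Cxxc1-deficient peak at 34817601-34819800 held 3.2 RPM (32 tags, 21.9 to 45.2) and was centred at -1.41 kb, with most of its windows beyond 1 kb. A second, intronic one held 1.5 RPM at 9.19 kb. The only WT peak nearby, 3.1 RPM, was intergenic at -9.61 kb. No window of this gene was shared between the genotypes.

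Another 2 members had Cxxc1-deficient windows away from a promoter, which brought the number in extended gene bodies to 4 of 49 (8.16%, 2.27% to 19.6%), against 11.4% of all genes. Traf3ip3, a lymphocyte protein that binds Traf3, had 1 peak of 1.9 RPM inside the gene at 20.14 kb and no WT window. Tnfrsf12a kept no promoter window (2.4 RPM in WT). Its Cxxc1-deficient peak of 2.8 RPM at -4.08 kb lay over Cldn6 and Cldn9, so it belongs to neighbouring genes. Of these 4 members, Traf3 was the only one with windows shared between the genotypes.

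**Figure D3:**
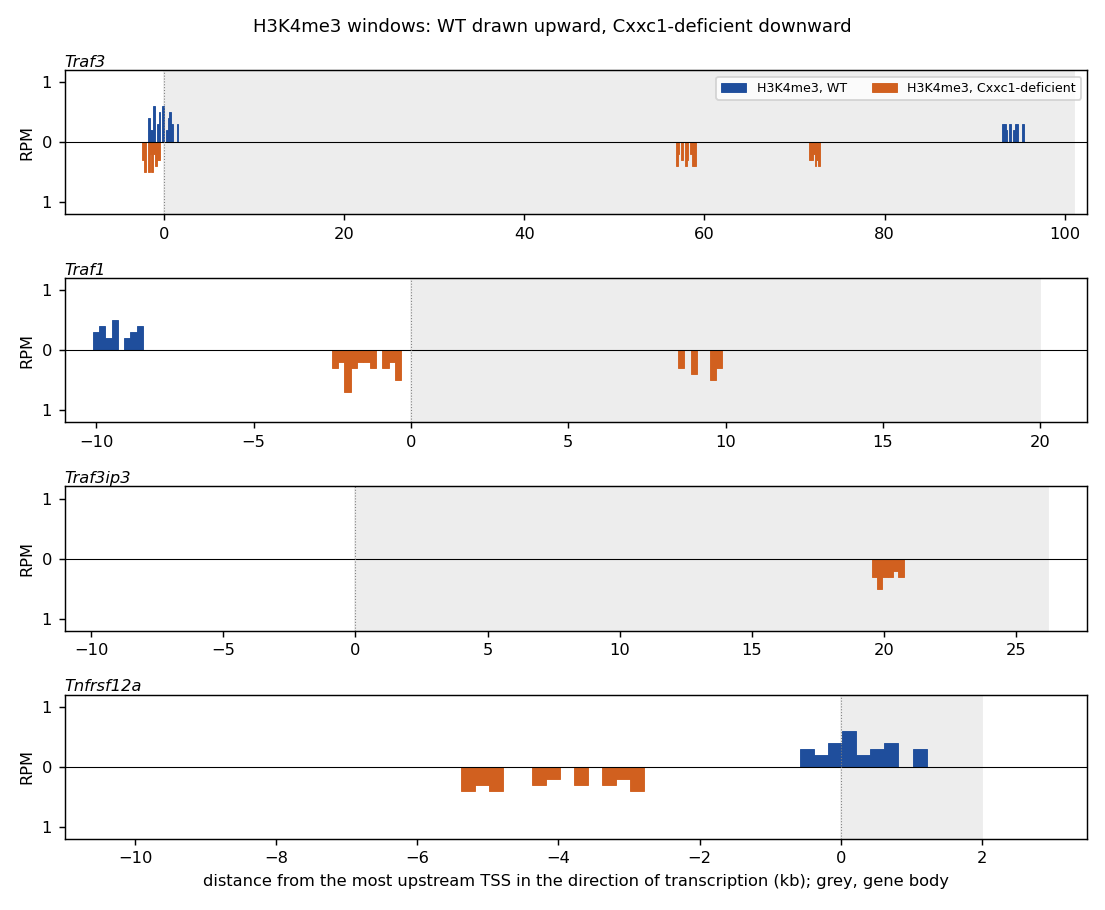
H3K4me3 windows (vertical axis, RPM, WT upward and Cxxc1-deficient downward) against distance from the most upstream TSS (horizontal axis, kb, in the direction of transcription) at the 4 members with Cxxc1-deficient windows, the gene body in grey. Among these genes the genotypes share windows at Traf3 alone, within and just upstream of its promoter, and those of Traf1 and Tnfrsf12a lie at different places.

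The third comparison concerned Cxxc1 itself. Of the 49 members, 1 had a Cxxc1 window within 1 kb of a TSS (2.04%, 0.0517% to 10.9%), and the share over all genes was 2.03%. In extended gene bodies 6 members were bound (12.2%, 4.63% to 24.8%), against 11.6% of all genes. A difference from genes in general was not detectable in either count. Within 2 kb of a TSS the promoter count was 3 of 49, where 2.74% of all genes had a Cxxc1 window. With 50 kb upstream the wider count was 13 of 49, where 19.1% of all genes had one. The bound genes were 2 adaptors (Traf3ip1 and Traf2), 1 ligand (Tnfsf9), 2 receptors (Tnfrsf1a and Tnfrsf9) and 1 TNF-induced gene (Tnfaip8l3). Tnfsf9 and Tnfrsf9 are ligand and receptor of each other.

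Traf3ip1 (ENSMUSG00000034292.7, chromosome 1, 93391245 to 93425880) was the only member with Cxxc1 within 1 kb of a TSS, joined within 2 kb by Tnfsf9 and Traf2. The peak at 93391001-93392200 held 1.7 RPM (16 tags, 9.15 to 26.0), was centred at 0.35 kb and lay in sequence with 63.5% GC and a CpG observed to expected ratio of 0.89. All 4 of its windows were also WT H3K4me3 windows, and the WT H3K4me3 peak around it held 3.7 RPM. The Traf2 peak (ENSMUSG00000026942.7, chromosome 2, minus strand, at 25399801-25401200) held 2.0 RPM (20 tags, 12.2 to 30.9) in an intron at 1.96 kb, with a CpG ratio of 0.08. Of its 6 windows, 3 were also WT H3K4me3 windows. These 2 genes were 2 of the 6 bound members (33.3%, 4.33% to 77.7%), and 11.2% of all bound genes had such a shared window.

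At the other 4 bound members Cxxc1 and H3K4me3 windows lay apart. Tnfsf9 (ENSMUSG00000035678.7, chromosome 17) had 1 Cxxc1 peak of 1.3 RPM at -6.81 kb and another of 1.6 RPM at 1.89 kb, over its coding sequence and 3′ end. Its WT H3K4me3 lay at the promoter between them. The upstream Cxxc1 peak was in an intron of Gm11110 and the other lay within 1 kb of a TSS of Gm11110, so either may belong to that gene. Tnfrsf1a (ENSMUSG00000030341.10, chromosome 6) had 1.8 RPM at -7.47 kb. Tnfrsf9 (ENSMUSG00000028965.7, chromosome 4) had 1.5 RPM in an intron at 22.43 kb. Tnfaip8l3 (ENSMUSG00000074345.3, chromosome 9) had an intergenic peak of 1.6 RPM at -8.68 kb and no H3K4me3 window in either genotype. The CpG ratio of these peaks ran from 0.07 at Tnfaip8l3 to 0.23 at the upstream Tnfsf9 peak. All 7 Cxxc1 peaks held between 12 and 20 tags, and their counting intervals overlapped.

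A WT promoter H3K4me3 window was present at 4 of the 6 bound members (66.7%, 22.3% to 95.7%), and at 43.8% of all bound genes. In Cxxc1-deficient cells 0 of the 6 had an H3K4me3 window in the extended gene body (upper limit 45.9%), where 21.7% of all bound genes had one, a share within that interval. With 50 kb upstream in place of 10 kb, Tnfsf9 and Tnfrsf1a had such windows. No Cxxc1 window of a member was also an H3K4me3 window of Cxxc1-deficient cells (0 of 6, upper limit 45.9%, against 2.19% of all bound genes). The 2 members that had Cxxc1-deficient promoter windows, Traf3 and Traf1, had no listed Cxxc1 window.

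**Figure D4:**
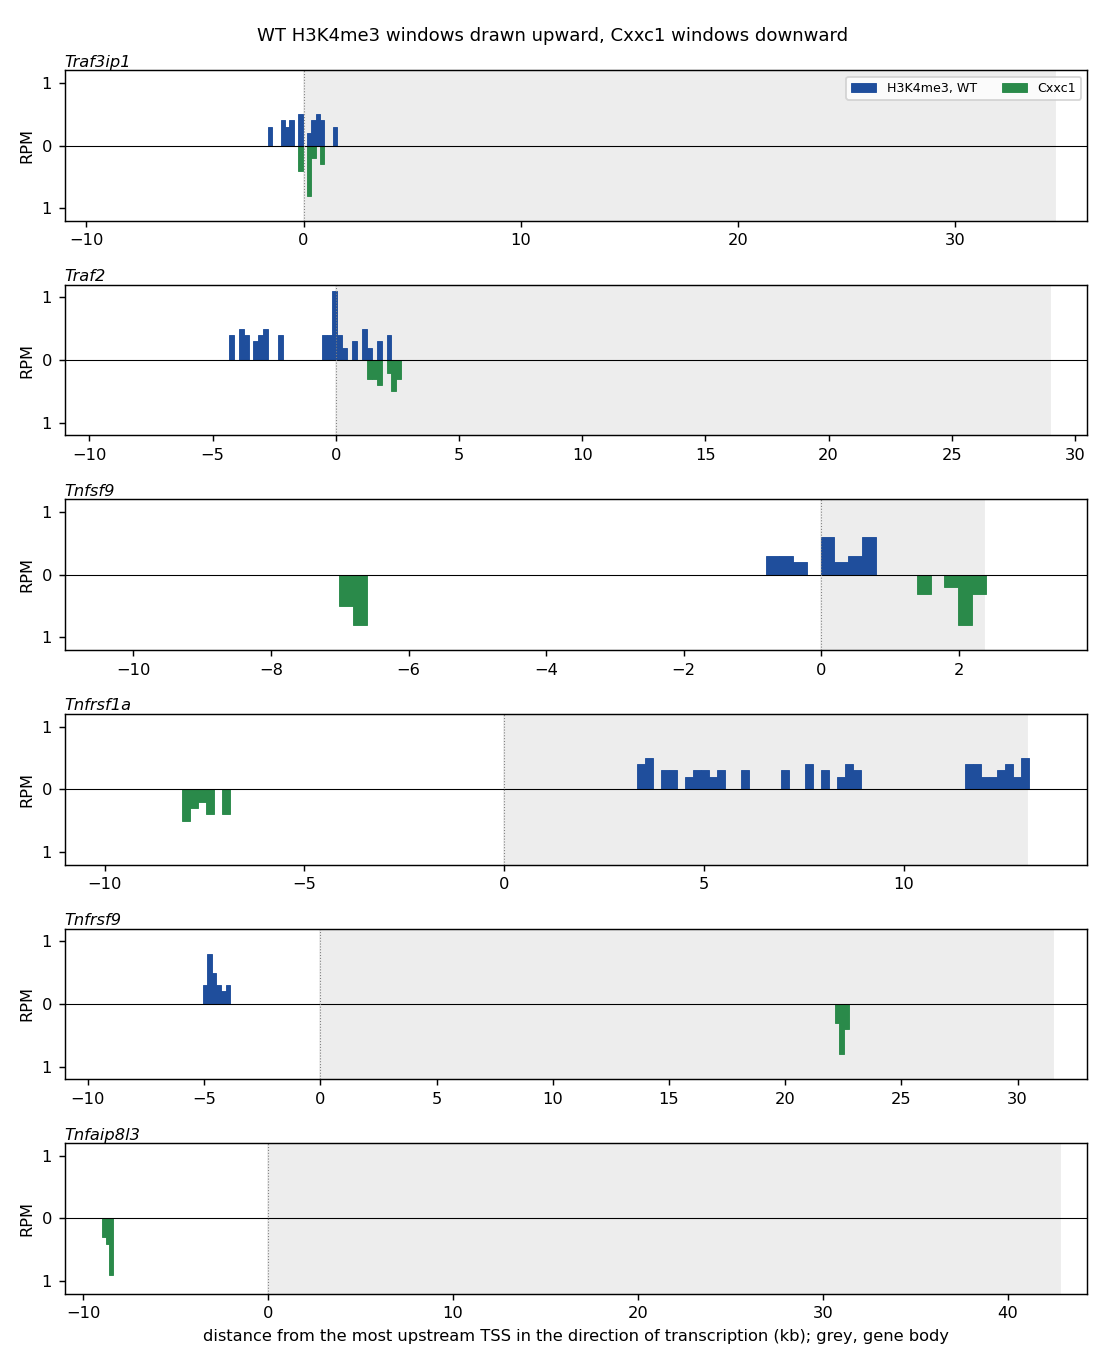
WT H3K4me3 windows (upward) and Cxxc1 windows (downward) in RPM on the vertical axis, against distance from the most upstream TSS in kb, at the 6 members with Cxxc1 windows in the extended gene body (gene body in grey). They coincide at Traf3ip1 (4 windows) and Traf2 (3 windows) and lie apart elsewhere.

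The promoters were then compared by sequence, using 500 bp either side of the TSS with the highest CpG ratio of each gene. A promoter was called CpG-rich with at least 55% GC and a CpG observed to expected ratio of at least 0.65. Of the 49 members 10 were CpG-rich (20.4%, 10.2% to 34.3%), and the share over all autosomal genes was 39.7%. They were 6 adaptors, 2 receptors, 2 TNF-induced genes and none of the 11 ligands. Traf3 had the highest ratio of the family (1.02), followed by Traf2 (0.96) and Traf3ip1 (0.92). Of the CpG-rich members 7 of 10 were listed in WT (70.0%, 34.8% to 93.3%), against 56.8% of all CpG-rich genes, and 1 of 10 in Cxxc1-deficient cells, against 9.99%.

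Most of the listed members were therefore not CpG-rich. Of the 39 CpG-poor members, 14 had WT promoter windows (35.9%, 21.2% to 52.8%), whereas the share over all CpG-poor genes was 16.5%, below the members' interval. The 5 of lowest ratio were Tnfrsf14 (ratio 0.25, 3.0 RPM), Tnfaip8l2 (0.25, 2.1 RPM), Traf7 (0.21, 1.6 RPM), Tnfsf14 (0.31, 1.6 RPM) and Traf3ip2 (0.33, 2.4 RPM). Others lay near the limit, such as Tnfrsf12a (0.68, with 52.6% GC), Tnfsf9 (0.64) and Tnfaip8 (0.62). With CpG-rich promoters taken from a ratio of 0.6 and 50% GC, a limit chosen after seeing the data, the share was 34.4% (18.6% to 53.2%) against 11.8% of all genes. The median CpG ratio was 0.6 at listed and 0.39 at unlisted members, and the corresponding medians over all genes were 0.77 and 0.4. CpG-rich promoters without a WT window were those of Traf5, Traf6 and Tnfrsf21.

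**Figure D5:**
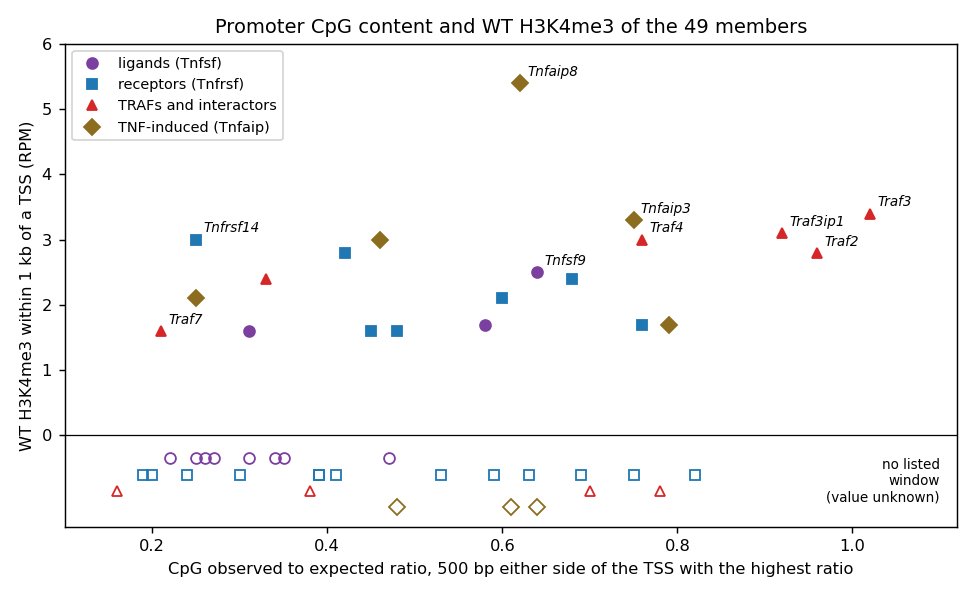
WT promoter H3K4me3 (vertical axis, RPM) against the CpG observed to expected ratio within 500 bp of the TSS with the highest ratio (horizontal axis) for the 49 members by class; open symbols below the line have no listed window and are placed there without a value. The ligands sit at ratios up to 0.64, and listed members span 0.21 to 1.02.

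Because many of the receptors signal to NF-kB, the sequence from 250 bp before to 50 bp after each TSS was searched for the kappaB consensus on both strands. A match was found for 9 of 49 members (18.4%, 8.76% to 32.0%), and for 13.4% of all autosomal genes. It was present at 4 of 21 members with WT windows (19.0%, against 18.4% of all such genes) and at 5 of 28 without (17.9%, against 11.1%). Tnfaip3 held GGGACACCCC and GGAAATCCCC, starting at -125 and -12 bases from a TSS, and Traf3 held GGGGATTTCC and GGGACTTTCC, at -10 and -5 bases from 2 different TSSs. Among members without WT promoter windows, Tnfrsf9 held the overlapping GGGGATTTCC and GGGATTTCCC just after an internal TSS, and Tnfsf15 held GGGACTTTCC. The other members with a match were Tnfaip8l1 and Tnfrsf8, which were listed in WT, and Tnfaip2, Tnfrsf11b and Tnfrsf25, which had no WT promoter window. These letters describe the sequence only.

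The genes of the family also lie in groups. With members at most 100 kb apart joined, 7 groups were found. In the chromosome 7 group of Tnfrsf22, Tnfrsf23 and Tnfrsf26, related decoy receptors, no window of any list was found. Both genes of the chromosome 17 pair Tnfsf9 and Tnfsf14 were listed in WT, and 1 of them was bound by Cxxc1. Of the chromosome 4 pair Tnfrsf1b and Tnfrsf8, the latter was listed in WT. The pairs Tnfsf15 and Tnfsf8, Tnfrsf4 and Tnfrsf18, Tnfsf4 and Tnfsf18, and Tnfsf12 and Tnfsf13 had no promoter window. With these and the genes named above, 19 of the 49 members had no window of any list (38.8%, 25.2% to 53.8%), where 50.1% of all genes had none. They were 8 ligands, Traf6, Tnfaip6 and 9 receptors, namely Tnfrsf11b (osteoprotegerin), Tnfrsf13b (TACI), Tnfrsf17 (BCMA), Tnfrsf18, Tnfrsf21 (DR6), Tnfrsf22, Tnfrsf23, Tnfrsf25 (DR3) and Tnfrsf26.

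Members of the superfamily whose symbols the rule misses were looked at beside them. Of 12 such genes 6 were listed in WT (50%, 21.1% to 78.9%), against 32.5% of all genes, namely Relt (4.9 RPM), Ltb (2.0 RPM), Cd27 (1.7 RPM), Ngfr (1.3 RPM), Tnf (1.0 RPM) and Lta (0.6 RPM). Tnf, Lta and Ltb lie next to each other on chromosome 17 and may share windows. In Cxxc1-deficient cells 2 of 12 were listed (16.7%, 2.09% to 48.4%, against 6.12% of all genes), Ltb (0.8 RPM) and Fas (1.6 RPM), and Fas, the death receptor, was not listed in WT. Cd27, a costimulatory receptor of thymocytes, had a Cxxc1 promoter sum of 2.4 RPM.

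Of 26 genes that act downstream of the receptors, 16 had WT promoter windows (61.5%, 40.6% to 79.8%), against 32.5% of all genes. In Cxxc1-deficient cells 7 of the 26 genes had promoter windows (26.9%, 11.6% to 47.8%), against 6.12% of all genes. Extended gene bodies held Cxxc1-deficient H3K4me3 windows at 9 of the 26 (34.6%, 17.2% to 55.7%), against 11.4% of all genes. Both background shares lay below these intervals, which cover counting error only. Of the 16 listed in WT, 5 remained listed (31.2%), with an interval up to 58.7% that takes in the 12.8% of all WT-listed genes. They were the NF-kB subunits Rela (4.1 RPM in WT, 2.5 RPM without Cxxc1) and Relb (2.6 and 2.5 RPM), the inhibitor Nfkbib (2.3 and 2.2 RPM), and Sharpin (3.1 and 2.7 RPM) and Rnf31 (3.5 and 1.7 RPM) of the linear ubiquitin ligase. For Relb, Nfkbib and Sharpin these are 26 and 25, 23 and 22, and 31 and 27 tags, differences smaller than counting error. The sums may cover different called windows and are scaled to each library's depth, so they cannot show equal amounts of the mark. Rel (2.0 RPM) and Tab1 (1.9 RPM) were listed in Cxxc1-deficient cells only. Tradd, Fadd and Ripk1, which join the death domain of TNFR1 or Fas, held 3.6, 2.8 and 3.0 RPM in WT and were not listed in Cxxc1-deficient cells. Cxxc1 windows lay in the extended gene bodies of 5 of the 26 genes (19.2%, 6.55% to 39.4%), and the 11.6% of all genes lies within that interval. The largest sum, 6.7 RPM, was at Nfkb1. The median extended gene body was 36.5 kb for the 26 genes and 25.6 kb for all autosomal genes, and its part in these shares was not tested. Whether these genes differed from the members in the share that remained listed was not tested. Their windows were not checked against TSSs of neighbouring genes, so some may belong to those genes.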

How the data were processed

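ChIP-seq libraries of DP thymocytes were sequenced with 50-bp reads. Per the submitters' processing notes, CASAVA 1.8.2 and SICER 1.1 were used with mm9, and the study's methods state that uniquely mapped reads were used. Those methods name the input and the ChIP DNA of Cxxc1-deficient cells as controls for SICER. For the Cxxc1 sites the study states that both were used, while the controls of the H3K4me3 lists are not stated. The aligner and the treatment of duplicates are not given in the sources used here, and these choices affect which places appear. The authors deposited 3 lists of 200-bp windows inside called islands, with values in RPM at 1 decimal. Of 5 libraries in the series, those without a list were not analysed here.

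Genes were the protein-coding genes of GENCODE vM1 on the same assembly, with chromosome lengths checked. Starts were converted to count from 1. A window counted with at least 1 bp of overlap, and windows with at most 2 missing windows between them were joined into peaks. Tags were inferred for each window from its RPM and the value of 1 tag (0.10962 to 0.11 RPM for Cxxc1, 0.10556 to 0.10625 RPM for WT and 0.10577 to 0.10625 RPM for Cxxc1-deficient H3K4me3), which followed from the decimals that occur. Python 3.11.15, numpy 2.4.6, pandas 2.3.3, scipy 1.17.1 (exact intervals), pysam 0.24.0 (sequence) and matplotlib 3.10.9 were used, and the functions were tested on simulated data. No test between groups was made, with 1 library in each. Named were all members with a promoter window or a Cxxc1 window, those with H3K4me3 windows elsewhere in the extended gene body, and all others as not listed. Alternatives were other promoter widths (500 bp, 2 kb), other upstream limits (0, 5 and 50 kb), the most upstream TSS only, a minimum of 1 RPM, and leaving out windows at another gene's TSS. Other limits for CpG-rich promoters were chosen after seeing the data. The members and gene lists were chosen with earlier results of these data known.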

Additional observations from a re-analysis of the deposited data

How the results depend on the processing

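Of 35 alternative values for 7 counts of members, 32 stayed within 1.5 times the reported count and 3 did not. With promoters of 2 kb either side of a TSS, 3 members had a Cxxc1 promoter window (Traf3ip1, Tnfsf9 and Traf2) where 1 was reported. The share over all genes was then 2.74% in place of 2.03%. With 50 kb upstream, 13 members had Cxxc1 windows where 6 were reported, and 12 had Cxxc1-deficient H3K4me3 windows where 4 were reported. The shares over all genes were then 19.1% in place of 11.6%, and 18.6% in place of 11.4%. By construction these wider intervals take in more sequence, neighbouring genes included. The members with Cxxc1-deficient promoter windows numbered 2 and those kept from WT numbered 1 under every alternative tried for them. With 4 other limits for CpG-rich promoters, chosen after seeing the data, 25.0% to 36.1% of CpG-poor members were listed in WT, against 5.97% to 14.3% of all such genes, and each background share lay below the members' interval. The listed peaks held few tags, so single places rest on counting error, and without a second library per group the spread between libraries is unknown. No paired analysis was possible because there was only a single library of each kind.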
